A study of Mus musculus with 8 samples.

Results

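AP-1 is a family of transcription factors, and 8 of its genes are described here: Jun, Junb and Jund, the Fos genes Fos, Fosb, Fosl1 and Fosl2, and Atf3. They were found by matching these mouse symbols to the 54532 gene identifiers of the count table, and all 8 had a row and enough reads to be tested. The set was selected on the difference between injured and sham eyes seen earlier in these same libraries. The differences between those groups are therefore given for these genes as a description, and no test of them is offered as support.

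RNA was measured in lens capsules of wild-type C57BL/6 mice aged 6 to 8 weeks, 7 days after surgery. In the 4 ASC libraries, an injury model of fibrotic cataract that the labels name only by this abbreviation, a needle pushed through the cornea had cut the anterior lens capsule. The 4 sham libraries came from eyes with an opened cornea and an intact lens capsule. Replicates are stated to be biological, and the number of capsules pooled for each is unknown here. Library totals were 14420494 to 21141582 reads. Sham 3 stood apart from the other sham libraries for Fos, Fosb, Junb and Atf3, so values without it are also given. Levels are given as CPM, read counts scaled to library sizes adjusted by the trimmed mean of M-values (TMM).

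AP-1 proteins bind DNA as dimers held together by a leucine zipper. Jun proteins can pair with themselves or with Fos proteins, whereas Fos proteins need a partner, and Atf3 pairs with Jun proteins or with itself and often represses. Fos, Jun, Junb, Fosb and Atf3 are immediate early genes, transcribed within minutes of growth factor, stress or wounding signals and giving short-lived transcripts. Jund and Fosl2 are expressed more steadily in many resting tissues. In epithelia AP-1 is known for its part in wound repair and in the response to TGF-beta. The anterior capsule bears the lens epithelium, whose 5 markers here (Pax6, Foxe3, Cdh1, Epha2 and Col4a1) were present in every library. Their summed levels were 7122 to 9211 CPM in sham and 6923 to 9881 CPM in ASC. Most of that sum came from Col4a1 (means of 7274 CPM in sham and 7318 CPM in ASC), so it mainly follows this gene.

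The 130 bases before the RefSeq start of the 5 members with the highest log2 fold changes are shown because these genes differed between groups in a shared direction. They lie on GRCm38.p6 at chr4:95052223-95052352 (minus strand), chr8:84978749-84978878 (minus), chr12:85473760-85473889 (plus), chr7:19310046-19310175 (minus) and chr1:191183334-191183463 (minus). Each is written 5′ to 3′ along the gene, and capitals mark matches to the motifs named below.
Jun: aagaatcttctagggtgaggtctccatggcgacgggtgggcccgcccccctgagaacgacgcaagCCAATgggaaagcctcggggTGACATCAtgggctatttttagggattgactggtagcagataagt
Junb: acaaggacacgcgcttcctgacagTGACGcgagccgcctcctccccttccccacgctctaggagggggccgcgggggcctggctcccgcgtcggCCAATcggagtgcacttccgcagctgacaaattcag
Fos: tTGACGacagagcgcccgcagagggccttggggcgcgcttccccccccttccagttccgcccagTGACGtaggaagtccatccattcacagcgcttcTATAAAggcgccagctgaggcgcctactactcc
Fosb: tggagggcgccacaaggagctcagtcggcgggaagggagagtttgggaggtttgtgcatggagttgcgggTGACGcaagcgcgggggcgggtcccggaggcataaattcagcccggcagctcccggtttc
Atf3: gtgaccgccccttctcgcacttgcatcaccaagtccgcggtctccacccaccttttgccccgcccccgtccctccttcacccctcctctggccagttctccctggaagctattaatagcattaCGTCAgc

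Motifs were searched on both strands in the 250 bases before the start of the 7 members with a RefSeq entry and in the same window of all 32851 promoters in that table. Fosl1 had no entry. The RefSeq starts of Fosb, Atf3 and Junb lie 1, 7 and 30 bases from the nearest GENCODE start. Those of Fosb, Atf3 and Fosl2 are inside the annotated gene. The core of the cAMP response element, TGACG, was found in 4 of the 7, Fos, Fosb, Junb and Atf3, and in 17.8% of all promoters. In Fos it stood at -129 and -66, in Fosb at -60, in Junb at -106 and, on the other strand, in Atf3 at -7, counted to the first base with -1 next to the start. The Atf3 match begins at the nearest GENCODE start (191183340) and so lies inside that transcript. Jun held TGACATCA at -45, a variant AP-1 site found in 2.93% of all promoters. Jun and Junb held CCAAT (33.8% of all promoters) and Fos TATAAA (12.4%). The complete element TGACGTCA (1.55% of all promoters, and containing TGACG), the AP-1 site TGANTCA (6.75%) and the CArG box of serum response factor (1.47%) had no match in these 7 windows. Bases further than 250 from the start were not searched, so a site there, in Fos or another member, would be missed. The windows of Jund and Fosl2 end 1210 and 299 bases from the nearest GENCODE start and are not shown. They count among the 7 as windows without a match, but the bases just before those GENCODE starts were not searched.

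Of the 8 members, Jun, Jund and Atf3 passed the threshold of edgeR's quasi-likelihood test over all genes (adjusted p under 0.05), all in the direction of higher levels in ASC. Over all 15857 genes tested 1.02% passed, 0.631% as higher. In 7 members, all but Fosl1, the lowest ASC library lay above the highest sham library, as it did for 3.39% of all tested genes. All 8 log2 fold changes (ASC over sham) were positive, against 51.4% of all genes, with a median of 3.26 against 0.008. An unadjusted p under 0.05 was reached by 7 members and by 14.7% of all genes. Nothing is read from these counts, because the set was picked with this contrast known. In a bulk preparation, more cells of a type and more RNA per cell cannot be told apart.

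**Figure D1:**
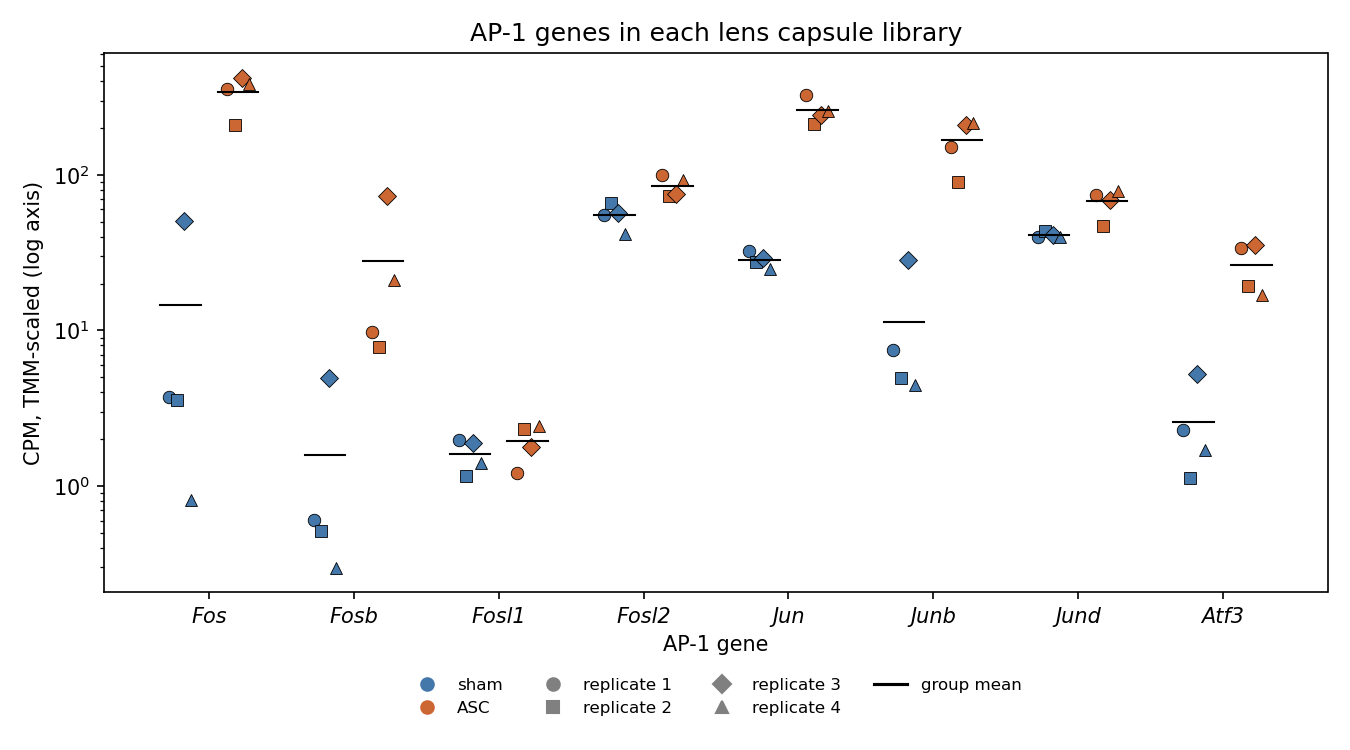
CPM of the 8 AP-1 genes (log axis) in each library, sham in blue and ASC in orange, with a symbol for each replicate number and a bar at the group mean. Sham 3, the blue diamond, stands at 50.4 CPM for Fos against 0.819 to 3.74 CPM in the other sham libraries, but within the sham points for Jun and Jund.

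Among the Jun genes, Jun itself (ENSMUSG00000052684, chromosome 4, 95049034 to 95052222 in GENCODE M21 on GRCm38) had 32.2, 27.4, 29.3 and 24.8 CPM in sham 1 to 4. In ASC 1 to 4 it had 327, 211, 243 and 256 CPM. The sham libraries were close to each other, and every ASC library was far above them. Group means were 28.4 ± 3.13 and 259 ± 49.0 CPM (SD, n = 4 each), a log2 fold change of 3.19 (SE 0.15, 95% confidence interval 2.87 to 3.51). Jun passed the threshold in the fit on all libraries and in each of 19 alternative settings, with log2 fold changes of 3.05 to 3.27.

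Junb (ENSMUSG00000052837, chromosome 8, 84974484 to 84978718), which can dampen Jun activity, had 7.44, 4.95, 28.2 and 4.47 CPM in sham. Its ASC levels were 152, 89.3, 210 and 214 CPM. Sham 3 stood apart from the other sham libraries, and no library crossed to the other group. The log2 fold change was 3.87 (SE 0.73, interval 2.12 to 5.61) and did not pass. Without sham 3 it was 4.87 and passed. Exons of Junb overlap those of Prdx2 on the other strand, and the counting is not known to use strand. Prdx2, an antioxidant enzyme, averaged 180 ± 22.6 CPM for sham against 187 ± 6.30 for ASC.

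Jund (ENSMUSG00000071076, chromosome 8, 70698949 to 70700616), the steady member of the Jun group, had 40.1, 43.4, 41.1 and 40.0 CPM in sham 1 to 4. Its ASC libraries held 74.5, 46.8, 69.1 and 79.1 CPM. The sham spread was the narrowest of the 8 genes relative to its mean (41.1 ± 1.61 CPM), and ASC 2 lay just above it. Jund passed with a log2 fold change of 0.71 (SE 0.14, interval 0.40 to 1.02). The call was lost when any library but ASC 2 was left out, at log2 fold changes of 0.62 to 0.73, and with library totals as the only scaling (0.57).

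Fos (ENSMUSG00000021250, chromosome 12, 85473890 to 85477273), the founding Fos gene, had 3.74, 3.55, 50.4 and 0.819 CPM in sham. In ASC it had 355, 209, 422 and 382 CPM. The sham libraries thus covered a wide range, with sham 3 highest and sham 4 lowest, while ASC 2 was the lowest ASC library and the other 3 lay close together (mean of all 4, 342 ± 92.7 CPM). The log2 fold change was 4.53 with an SE of 1.26 (interval 1.48 to 7.58) and did not pass edgeR's test. Without sham 3 it was 6.91 and passed.

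Fosb (ENSMUSG00000003545, chromosome 7, 19302696 to 19310051) had 0.609, 0.514, 4.94 and 0.298 CPM in sham, from 4 to 102 reads a library. Its ASC levels were 9.82, 7.87, 73.6 and 21.2 CPM, so both groups were uneven and ASC 3 held most of the ASC signal. The log2 fold change was 4.09 (SE 1.18, interval 1.24 to 6.93), which did not pass. Leaving out ASC 3 gave 2.98 and leaving out sham 3 gave 5.81, and neither passed. Gene counts do not separate full-length FosB from its truncated splice form.

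Fosl2 (ENSMUSG00000029135, chromosome 5, 32135801 to 32157842), which encodes Fra-2, had 55.2, 65.8, 56.4 and 41.7 CPM in sham 1 to 4. Its ASC libraries held 99.9, 73.4, 74.8 and 92.6 CPM. The groups were adjacent but did not overlap, and the log2 fold change of 0.63 (SE 0.15, interval 0.32 to 0.95) did not pass. Fosl1 (ENSMUSG00000024912, chromosome 19, 5447547 to 5455946), which encodes Fra-1, was low, with 19 to 43 reads a library. Its mean was 1.61 ± 0.382 CPM for sham and 1.94 ± 0.562 CPM for ASC, with overlapping groups and a log2 fold change of 0.27 (interval -0.44 to 0.97).

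Atf3 (ENSMUSG00000026628, chromosome 1, 191170296 to 191218039), a stress-induced factor, had 2.29, 1.12, 5.23 and 1.71 CPM in sham 1 to 4. Its ASC libraries held 33.9, 19.4, 35.2 and 17.0 CPM. Sham 3 was again the highest sham library, below the lowest ASC library. Atf3 passed with a log2 fold change of 3.33 (SE 0.51, interval 2.14 to 4.52). It lost the call when any library but sham 3 was left out, at log2 fold changes of 3.06 to 3.48, and kept it without sham 3 at 3.94.

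**Figure D2:**
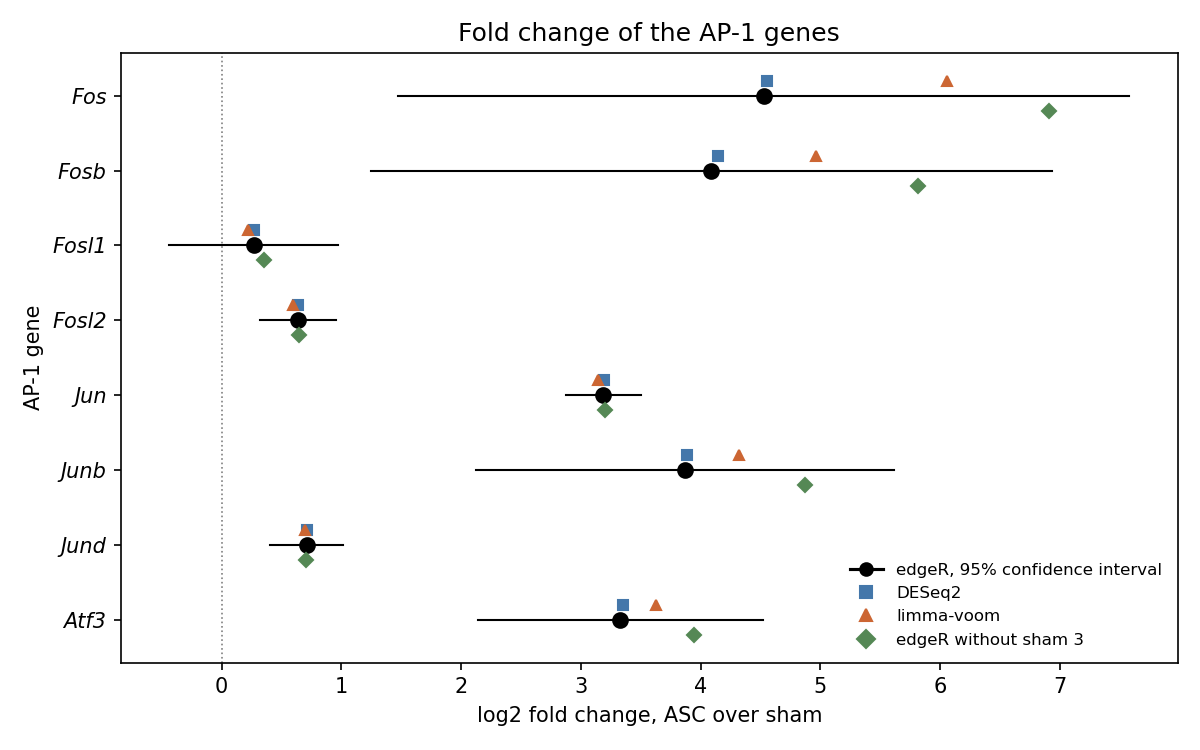
log2 fold change of each AP-1 gene, ASC over sham, from edgeR with its 95% confidence interval (black), DESeq2 (squares), limma-voom (triangles) and edgeR without sham 3 (diamonds). The intervals of Fos (1.48 to 7.58) and Fosb are wide and their values move right without sham 3, whereas Jun (2.87 to 3.51), Jund and Fosl2 stay in place.

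DESeq2 called 7 of the 8, all but Fosl1, where it called 3.74% of all genes. With limma-voom 5 passed, Fos, Jun, Junb, Jund and Atf3, against 1.01% of all genes. Without sham 3, edgeR called 4, Fos, Jun, Junb and Atf3, against 0.673% of all genes. The members it hardly touched had log2 fold changes without it of 3.20 for Jun, 0.71 for Jund, 0.65 for Fosl2 and 0.35 for Fosl1. With each other library left out in turn the number was 1, Jun alone, except without ASC 2, where Fosl2, Jun and Jund passed.

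Sham 3 differed from the other sham libraries in 4 members. Relative to the median of the other 3 sham libraries on the log2 CPM scale, it was higher by 3.79 for Fos, 3.01 for Fosb, 2.48 for Junb and 1.55 for Atf3. Jun (0.10), Jund (0.04), Fosl2 (0.03) and Fosl1 (0.39) were near that median. At least 1 log2 unit above the highest other sham library were these 4 members and 1.73% of all tested genes, where the other sham libraries held 0.0631% to 0.687% of genes and no member. Sham 3 also had the highest photoreceptor marker sum of any library (3776 CPM, against 902 to 1843 CPM in the other sham libraries) and the highest pigment cell sum in sham (255 CPM, against 89.2 to 158 CPM). Its endothelium sum was also the highest of any library (16.1 CPM, against 4.84 to 8.75 CPM in the other sham libraries). Most of that sum came from Kdr, at up to 15.0 CPM in sham, so it mainly follows this gene. Pecam1, Cdh5, Tie1 and Emcn reached at most 0.983, 0.609, 0.609 and 0.468 CPM in any sham library. Sham 3 had the lowest red cell sum (40.1 CPM). The part of these cells in the AP-1 levels was not tested.

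**Figure D3:**
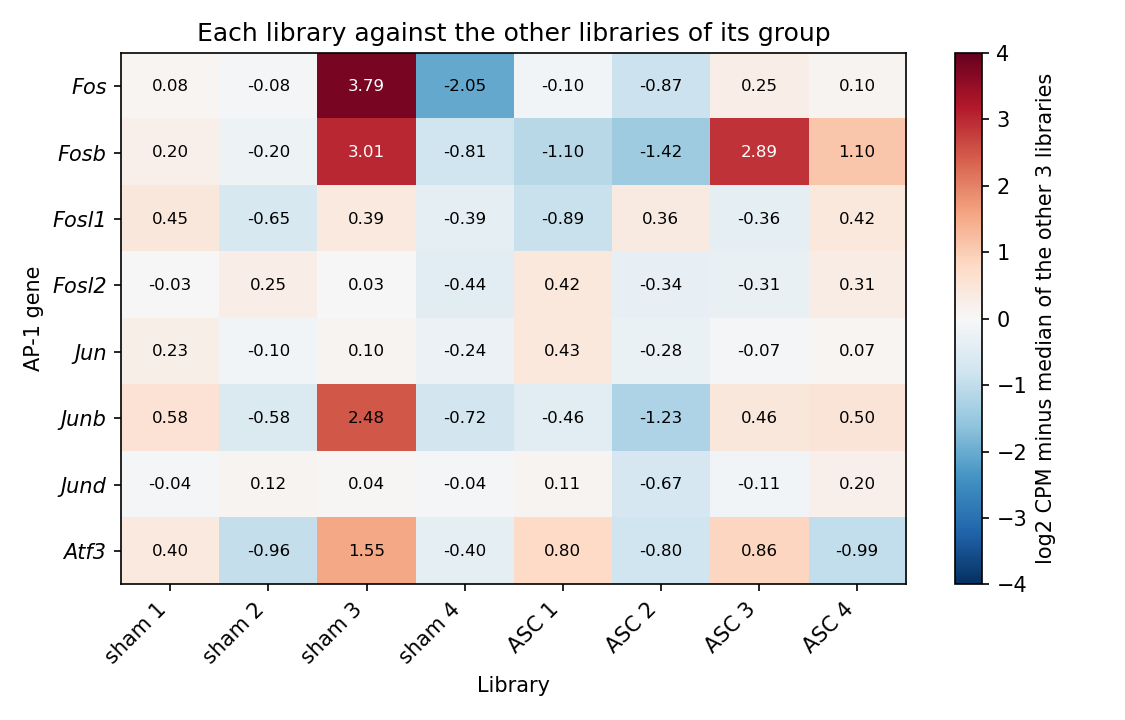
Each AP-1 gene's log2 CPM in a library minus the median of the other 3 libraries of its group, on a colour scale from -4 to 4. Sham 3 is high for Fos (3.79), Fosb (3.01), Junb (2.48) and Atf3 (1.55), and ASC 3 for Fosb (2.89).

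Within ASC, library 2 was the lowest for Fos, Fosb, Fosl2, Jun, Junb and Jund. Its summed AP-1 level was 659 CPM, against 1054 to 1129 CPM in the other ASC libraries. ASC 3 had Fosb 2.89 log2 units above the median of the other 3, and it was at least 1 log2 unit above the highest other ASC library for this member and for 0.183% of all tested genes. ASC 3 also held the highest smooth muscle marker sum (53.1 CPM, against 5.04 to 11.2 CPM in the other ASC libraries). Most of that sum came from Myh11, at up to 50.5 CPM in ASC. The part of such cells in the Fosb level was not tested.

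Levels were compared between genes per kilobase of exon. In sham Jund was highest, at 24.7 ± 0.965 CPM per kilobase, above Jun at 8.91 ± 0.981, with no overlap. Below Jun came Fos (6.22 ± 10.2), Fosl2 (5.66 ± 1.03), Junb (4.89 ± 4.94), Atf3 (1.20 ± 0.847), Fosl1 (0.792 ± 0.188) and Fosb (0.255 ± 0.358). From Jun downwards each gene's range overlapped that of its neighbour in this order. Sham 3 held the highest value of Fos (21.4) and Junb (12.3) in this group. Without it, a calculation added after the data were seen, Fos averaged 1.15 ± 0.696 CPM per kilobase (n = 3) and moved below Fosl2 (5.60 ± 1.25) and Junb (2.44 ± 0.694). Jun, Fosl2, Junb and Fos then followed Jund in this order with no overlap between neighbours.

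The order differed in ASC, where Fos led at 145 ± 39.4 CPM per kilobase. Jun (81.4 ± 15.4) and Junb (72.3 ± 25.5) followed and overlapped each other. Fos and Jun also overlapped as groups, although Fos was above Jun in each of the 4 libraries. Jund came next at 40.4 ± 8.60, then Atf3 at 12.2 ± 4.41, Fosl2 at 8.80 ± 1.36, Fosb at 4.50 ± 4.95 and Fosl1 at 0.956 ± 0.277. Of these neighbours, Junb and Jund, Atf3 and Fosl2, and Fosl2 and Fosb had overlapping ranges, and the wide range of Fosb also overlapped that of Atf3. Without length correction Fosl2 stood above Jund in both groups.

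The summed level of the 8 transcripts was 52.6 ± 16.9 CPM per kilobase in sham and 366 ± 84.4 in ASC, with no overlap. Jund supplied 51.4%, 56.3%, 31.8% and 60.1% of that sum in sham 1 to 4 and 9.75% to 11.7% in ASC. Fos supplied 3.40%, 3.26%, 27.7% and 0.873% in sham and 36.9% to 42.2% in ASC. For these shares sham 3 lay between the other sham libraries and the ASC libraries, but its Jun share of 11.8% was the lowest of all 8 libraries (18.6% to 21.6% in the other sham libraries, 18.0% to 27.5% in ASC). Its summed level of 77.5 CPM per kilobase was nearer to sham.

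**Figure D4:**
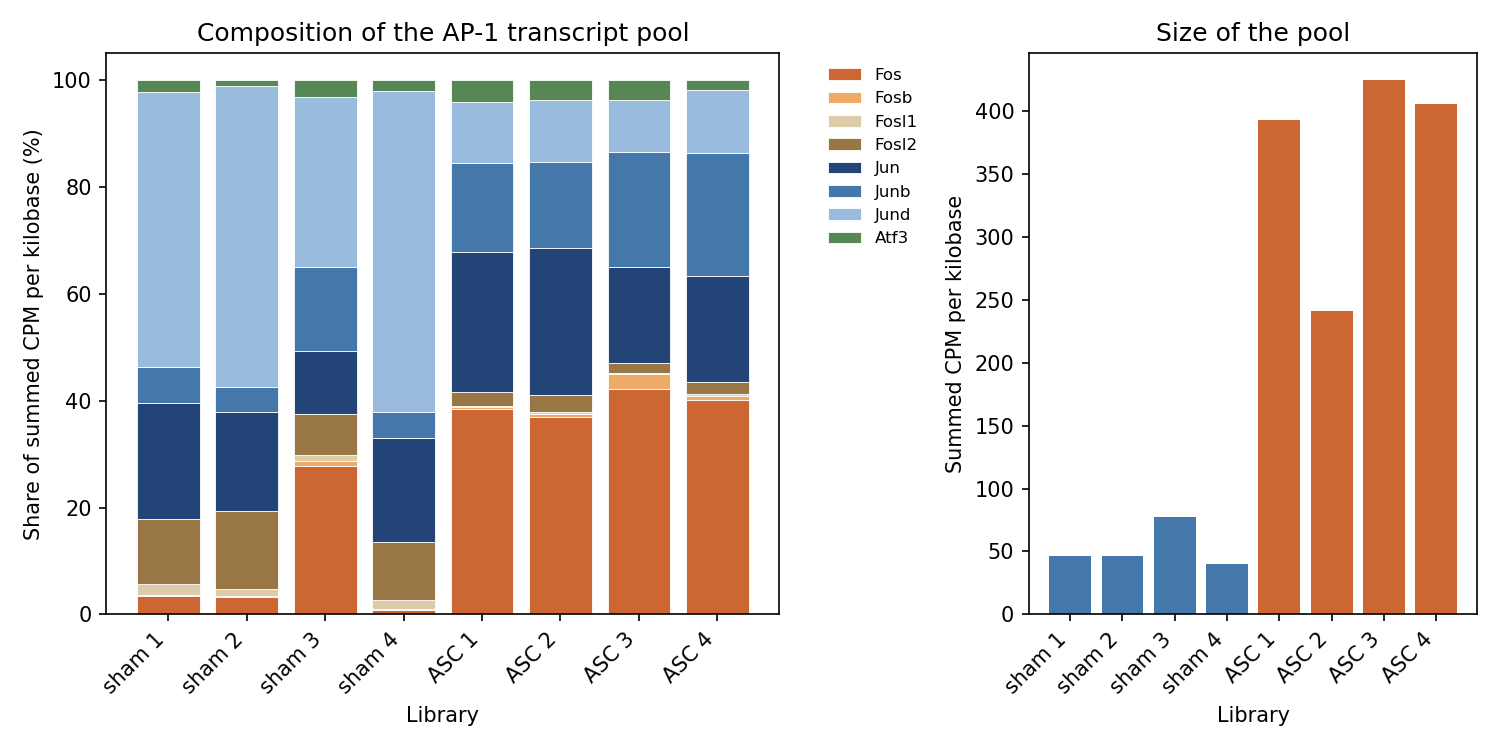
Left, share of each AP-1 gene in the summed CPM per kilobase of each library, in percent; right, that sum. Jund takes 31.8% to 60.1% in sham and 9.75% to 11.7% in ASC, and Fos takes 36.9% to 42.2% in ASC.

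Markers of cells that the preparation could hold moved with the groups in part. Of 54 tested markers in 12 lists, 3 passed edgeR's test, all higher in ASC: the corneal keratins Krt12 and Krt5 and the collagen gene Col1a1. Over all tested genes 1.02% passed in edgeR, 3.74% in DESeq2 and 1.01% in limma-voom, and 14.7% had an unadjusted p under 0.05 in edgeR. Summed levels did not overlap between groups for red cell markers (40.1 to 62.8 CPM in sham, 73.9 to 370 in ASC). Of the 5 red cell genes 0 passed in edgeR, 5 had a p under 0.05 before adjustment, 4 passed in DESeq2 and 0 in limma-voom. The sums of the 4 smooth muscle markers did not overlap either (1.31 to 2.34 against 5.04 to 53.1 CPM), and most of them came from Myh11. The summed levels of the other 10 lists overlapped, among them corneal epithelial (393 to 611 and 362 to 957 CPM) and pigment cell sums (89.2 to 255 and 181 to 656 CPM). Most of the corneal sum came from Aldh3a1 (means of 483 and 592 CPM), while Krt12 and Krt5 had log2 fold changes of 3.19 and 3.52. The other tested corneal genes overlapped between groups, with Krt13 at 2.14, Aldh3a1 at 0.29, Krt4 at 0.18 and Upk1b at -0.10. Of the 6 tested corneal genes 3 passed in DESeq2, 1 in limma-voom, and 3 had a p under 0.05 before adjustment. Most of the stromal fibroblast sum came from Pdgfra (means of 337 and 311 CPM). In that list Col1a1 and Dcn did not overlap between groups (log2 fold changes of 1.53 and 2.31), whereas Col1a2 and Col3a1 did (0.06 and 1.40). Of the 7 pigment cell genes, with a median log2 fold change of 1.87, 0 passed in edgeR or limma-voom, 4 in DESeq2, and 5 had a p under 0.05 before adjustment. Of the 7 lens fibre genes 0 passed in edgeR or limma-voom, 3 in DESeq2, and 3 had a p under 0.05 before adjustment. Neutrophil markers summed to at most 2.68 CPM in any library, with Ly6g and Cxcr2 at 0 throughout. The part of these cells in the AP-1 differences was not tested.

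The genes around AP-1 were read from 7 lists with 73 genes, 64 of them tested. In edgeR's test 4 passed, all higher in ASC, where 1.02% of all genes passed. The median log2 fold change was 0.021.

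Partners and regulators that act before or beside AP-1 mostly stayed below the threshold. Of 9 genes of the Maf and Nrf factors, Maff alone passed. Maff encodes a small Maf protein that lacks an activation domain, and its mean was 11.4 ± 1.07 CPM for sham and 30.8 ± 3.20 CPM for ASC. Single libraries lay at 10.1 to 12.4 CPM and 27.5 to 34.9 CPM, so the groups were well apart. Maff rose by a log2 fold change of 1.44 (SE 0.11, edgeR quasi-likelihood test, adjusted p = 6.58e-05) and kept its call in each of 18 alternatives. Of 5 tested dimer partners 0 passed in edgeR, in DESeq2 or in limma-voom, and 0 had a p under 0.05 before adjustment, with log2 fold changes such as Atf2 at -0.12 and Atf7 at -0.18. Of 3 CREB family genes 0 passed with these tools and 1 had a p under 0.05 before adjustment, with Creb1 at -0.28 and Atf1 at -0.17.

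Serum response factor and its cofactors, which act on the Fos promoter, gave 0 of 6 calls with edgeR, DESeq2 or limma-voom, and 2 had a p under 0.05 before adjustment. Srf was at -0.24 and Mrtfb at -0.06. Among 21 genes of the MAP kinase cascades 0 were called by these tools and 1 had a p under 0.05 before adjustment, with Mapk3 at 0.11 (-0.014 with library totals as the only scaling). These kinases act through phosphorylation, which RNA does not show. Of 7 genes of AP-1 protein turnover 0 were called by edgeR, DESeq2 or limma-voom and 0 had a p under 0.05 before adjustment, with Ndfip1 at 0.08 and Cops5 at 0.06 (-0.042 and -0.055 with library totals alone).

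Of 20 textbook AP-1 target genes, listed with earlier results of these data known, 13 were tested. In edgeR's test 3 of these rose, against 0.631% of all genes, with a list median of 0.844 on the log2 scale. DESeq2 called 5 and limma-voom 3, against 3.74% and 1.01% of all genes. An unadjusted p under 0.05 was reached by 5, against 14.7% of all genes. The 7 not tested, among them Il6, Mmp3, Mmp13 and Plaur, had at most 12 reads in any library, and Mmp10 had none. Ptgs2, which encodes the inducible prostaglandin synthase, had 5 reads over the 4 sham libraries and 116 over the 4 ASC libraries. Its fitted log2 fold change of 4.60 (SE 0.58, adjusted p = 0.0026 in edgeR's quasi-likelihood test) rests on those few sham reads. Plau, urokinase, had 2 to 10 reads in each sham library and 25 to 69 in each ASC library (log2 fold change 3.16, SE 0.45, adjusted p = 0.0056, same test). Ccl2, a monocyte chemokine, averaged 13.9 ± 7.83 CPM in sham against 108 ± 25.9 CPM in ASC (2.95, SE 0.46, edgeR quasi-likelihood test, adjusted p = 0.0425). Ccl2 lost its call with library totals alone and when any library but sham 1 was left out. Targets that did not pass were chosen for mention after their values were seen. Of these, the 3 most abundant in sham, Ezr, Cd44 and Ccnd1, had log2 fold changes of 0.10, -0.12 and -0.05. Hmox1, heme oxygenase, stood at 2.79 with overlapping groups, and Timp1, a metalloproteinase inhibitor, at 1.08 with groups that did not overlap.

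**Figure D5:**
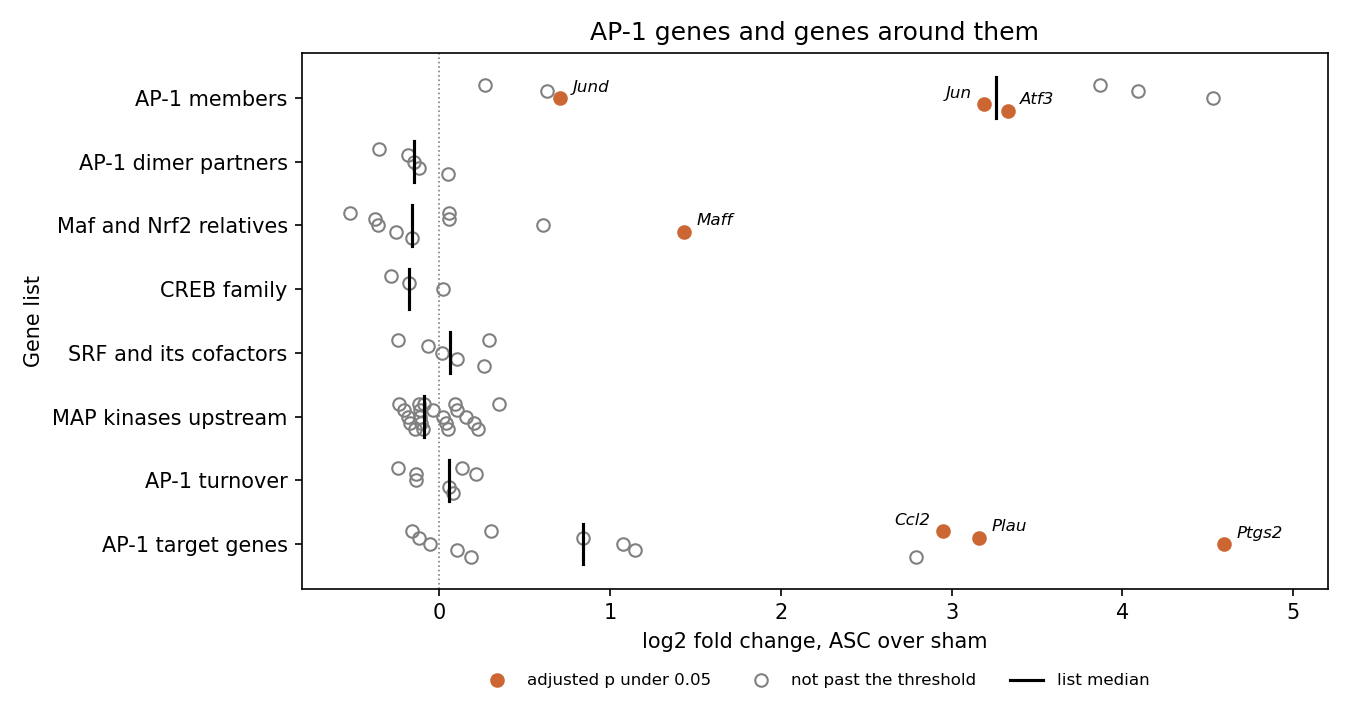
log2 fold change, ASC over sham, of the tested genes of the AP-1 set and of 7 related lists, with filled points past an adjusted p of 0.05 in edgeR's test and a bar at each list's median. Outside the AP-1 set 4 points are filled: Maff, Ccl2, Plau and Ptgs2.

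Genes with the most similar profile were found by the root-mean-square difference of centred log2 CPM over the 8 libraries, among the 9539 genes whose average log2 CPM reached 3. For Jun they were Csrnp1 (0.309), Ier2 (0.352), Gem (0.379) and Nfkbia (0.389). The immediate early gene Ier2 had 5.05 ± 1.16 CPM in sham against 54.1 ± 17.7 in ASC. Gem, a small GTPase gene, had 3.96 ± 0.742 against 44.6 ± 17.8 CPM, and Csrnp1 4.91 ± 1.33 against 34.1 ± 4.51 CPM. Nfkbia, the inhibitor of NF-kB, had 19.7 ± 2.74 against 110 ± 27.4 CPM. These genes were picked for likeness to Jun, so their differences between groups are a description.

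For Fos the nearest were Egr1 (0.737), Cxcl1 (0.747), Zfp36 (1.38) and Ccl7 (1.46), with larger distances than those to Jun. Egr1, an immediate early zinc finger factor, averaged 8.22 ± 7.11 CPM in sham and 349 ± 97.6 CPM in ASC. Cxcl1, a neutrophil chemokine, averaged 0.362 ± 0.601 and 23.0 ± 10.8 CPM, and Zfp36, an mRNA decay factor, 9.78 ± 9.15 and 116 ± 35.8 CPM. In sham 3 Zfp36 stood at 4.56 log2 CPM, with the next sham library at 2.54, and Egr1 at 4.18 with the next at 3.13. Of the genes nearest to Jun, sham 3 was the highest sham library for Csrnp1 (2.81, with the next at 2.23) and Gem (2.36 and 1.95), but not for Ier2 (2.32, with the highest at 2.69) or Nfkbia (4.37 and 4.50). Among the AP-1 genes themselves, Fosl2 and Jund were the closest pair (0.203), and Jun was closer to Atf3 (0.603) than to Fos (2.03). Profiles were centred but not scaled, so these distances also carry the size of the difference between groups. Log2 fold changes were 0.63 for Fosl2 and 0.71 for Jund, and 3.19, 3.33 and 4.53 for Jun, Atf3 and Fos.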

How the data were processed

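Poly-A RNA from 8 lens capsule libraries, 4 sham and 4 ASC, was sequenced. The authors deposited 1 table of unnormalized read counts per gene with 54532 identifiers. Per the submitters' processing notes, CASAVA, fastp, HISAT2 2.0.5 and featureCounts 1.5.0-p3 were used. Build, annotation, strand setting and treatment of multi-mapping reads are not stated in the labels or the table. Exons of Junb, Fosl1, Jun and Jund overlap those of Prdx2, Ccdc85b, Junos and Gm11175 on the opposite strand, so reads of each pair may mix (log2 fold changes were 0.05 for Prdx2, 0.29 for Ccdc85b and -0.17 for Junos).

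Symbols were matched for 54409 identifiers. The whole table was fitted with edgeR 4.0.16 (R 4.3.3): filterByExpr by group, TMM, the robust quasi-likelihood test comparing ASC with sham, no covariates, Benjamini-Hochberg adjustment over 15857 genes and a threshold of 0.05. The procedure was tested on simulated data, where the share of false calls among all calls lay above this threshold. Log2 CPM used a prior count of 2. Standard errors are the log2 fold change over the square root of F. Levels per kilobase used the summed exon length in GENCODE M21. Alternatives were DESeq2 1.42.0, limma-voom (limma 3.58.1) with sample weights, other scalings, filters and thresholds, a replicate block, and each library left out. No molecular identifiers are described, so precision refers to reads, not molecules.

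The members and all gene lists were chosen with earlier results of these data known. Genes named are the 8 members, from each of 7 other lists up to 4 genes past the threshold or else the 2 most abundant tested, and for Jun and Fos the 4 nearest profiles. Ezr, Cd44, Ccnd1, Hmox1 and Timp1 were named after their values were seen. One gene that this rule names is not reported here. Promoter sequences are RefSeq's, build GRCm38.p6.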

Additional observations from a re-analysis of the deposited data

Results flagged for a closer look

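A library far from the other 3 of its group, by the gap to the nearest of them against the group's range in CPM (Dixon's criterion at 95%), was found 11 times in 86 groups examined. For independent groups chance gives about 1 in 20. These groups are not independent, since some genes were picked for likeness to Jun or Fos and the summed AP-1 level repeats the members. No excess over chance is read from the count. In sham, library 3 stood high for Fos (50.4 CPM), Fosb (4.94 CPM), Junb (28.2 CPM), Cxcl1 (1.26 CPM) and Zfp36 (23.5 CPM), and library 2 for Ndfip1 (166 CPM). In ASC, library 2 stood low for the summed AP-1 level (659 CPM), for Egr1 (204 CPM) and for the lymphocyte marker sum (0.380 CPM). ASC 1 stood high for Nfkbia (151 CPM) and ASC 3 for the smooth muscle marker sum (53.1 CPM).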

How the results depend on the processing

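The 162 genes and 3 AP-1 members past the threshold became 593 and 7 with DESeq2, and 44 and 1 at an adjusted p of 0.01. A filter of 1 count in any library gave 712 genes, with 4 members, and limma-voom called 5 members. Leaving out 1 library at a time gave 56 to 228 genes, 1 to 4 members and 3 to 4 related genes. The cause of these differences was not tested, and leaving out a library also lowers the number of libraries. Jun passed in all 19 alternatives, and the log2 fold changes of all 8 members were positive in each of them. With library totals as the only scaling, the all-gene median went from 0.008 to -0.116, and log2 fold changes turned to -0.014 for Mapk3, -0.042 for Ndfip1 and -0.055 for Cops5. Leaving out 1 library gave -0.043 to 0.148 for Cops5, negative without sham 3 (-0.043) and without ASC 1 (-0.026). None of these passed in any setting. Deviations of same-numbered sham and ASC libraries from their group means had correlations of -0.09 to 0.217, with 2 of 4 numbers matching best. With 4 numbers this cannot decide whether the numbers pair the samples. With the replicate block 169 genes and 3 members passed, Fosb, Jun and Atf3, and neither Jund nor Ccl2 did. Of 32 shares per length, 11 moved by over 1 SD with another length. Without length correction Fosl2 stood above Jund in sham (36.3% and 27.7%) and in ASC (8.98% and 6.93%). With the length of the longest transcript Junb (21.9%) stood above Jun (20.4%) in ASC. Fosl1 and Fosb in sham are limited by depth, at 4 to 102 reads a library.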
